A study of Mus musculus with 6 samples.

Results

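The transcription factor gene Trp53, which encodes mouse p53, and 9 genes tied to it by regulation were examined in R1 mouse embryonic stem cells at day 6 of retinoic acid treatment. The genes were taken by symbol from a list of 10: Trp53, Mdm2, Mdm4, Bax, Ccng1, Pmaip1, Bbc3, Fas, Trp53inp1 and Sesn2. All 10 were found among the 24002 genes of the RNA-seq table. R1 cells were kept with LIF, a cytokine of self-renewal, and formed into embryoid bodies in hanging drops for 48 h. They were then given retinoic acid, a morphogen of the hindbrain and spinal cord. The labels write its dose as 0.5 mM, where micromolar doses are usual. The labels also give 15% serum replacement and 1000 U of LIF per ml for every sample. Polyadenylated RNA was sequenced in 3 samples, numbered as replicates 1 to 3. All samples share this line and treatment, and no untreated, earlier or p53-deficient cells are analysed here, so the values are levels at day 6 and not responses. Whether the 3 replicates are separate cultures is not stated in the labels, and their spread may be no more than technical.

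p53 is a tetrameric DNA-binding protein that accumulates and becomes active after DNA damage, loss of ribosome balance or oncogene activity. In unstressed cells it is held down by Mdm2, a ubiquitin ligase, together with its relative Mdm4, and Mdm2 is itself transcribed under p53 control, which closes a feedback loop. Its other classical targets halt the cell cycle, repair DNA, temper metabolism or start apoptosis. Embryonic stem cells and early neural cells are known to be sensitive to p53-driven death.

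Expression is given as FPKM, the fragments assigned to a gene per length of its transcript and scaled to the mapped fragments of the library, so levels of different genes can be set side by side. FPKM totals ran from 477760 to 524717 per library. Small RNA genes made up 35.3%, 32.8% and 38.8% of the totals in replicates 1, 2 and 3. Read numbers are not known. From the spacing of low values, replicate 1 was sequenced about 1.56 times as deeply as replicate 2 and 1.18 times as deeply as replicate 3, so low values are least firm in replicate 2. A gene is called expressed here at 1 FPKM or more in every replicate, which held for 50.7% of all 24002 genes. All 6 neural progenitor markers were expressed, with means of 11.5 to 910 FPKM, and all 8 neuronal markers, with means of 87.3 to 645 FPKM. All 11 markers of extraembryonic endoderm, a yolk sac lineage, were expressed too, with means of 2.39 to 269 FPKM. None of 6 endothelial and blood markers was expressed, and Gata1, Hba-x and Hbb-y were listed at 0 in every replicate. Of 6 pluripotency markers, 3 were expressed (Dppa5a, Esrrb and Zfp42), while Nanog and Pou5f1 stood at 0.0879 ± 0.0318 and 0.815 ± 0.0792 FPKM (SD, n = 3).

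Because the members are named for their tie to p53, the DNA before their start sites is shown first. p53 binds a pair of adjoining elements of 10 bases, each made of 3 purines, a C, 2 bases that are A or T, a G and 3 pyrimidines. This consensus of 20 bases, with no spacer and with the C and G of each element kept, was searched on both strands of RefSeq promoter windows in build GRCm38.p6. A window holds 250 bases before a start and 50 after it. The windows cover 8 of the 10 members, in 11 windows. With up to 3 mismatches, Ccng1, Trp53 and Bbc3 held a match in 3 of the 11 windows (27.3%), against 1.38% of all 32851 windows and 1.47% of the 11831 windows of expressed genes. The 250 bases before the start of these genes follow, with the match in capitals, and those of Bax, the highest member, which held no match in this window.
Ccng1: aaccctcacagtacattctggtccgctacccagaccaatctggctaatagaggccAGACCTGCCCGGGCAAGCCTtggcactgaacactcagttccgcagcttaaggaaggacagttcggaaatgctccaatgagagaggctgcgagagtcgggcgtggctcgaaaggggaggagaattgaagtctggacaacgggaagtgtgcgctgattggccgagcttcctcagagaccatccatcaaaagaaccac
Bbc3: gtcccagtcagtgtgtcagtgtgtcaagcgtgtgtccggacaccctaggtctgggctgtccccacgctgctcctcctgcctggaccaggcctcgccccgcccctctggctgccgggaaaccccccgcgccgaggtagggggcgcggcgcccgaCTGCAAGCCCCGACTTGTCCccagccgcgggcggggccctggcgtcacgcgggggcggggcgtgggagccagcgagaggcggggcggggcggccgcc
Trp53: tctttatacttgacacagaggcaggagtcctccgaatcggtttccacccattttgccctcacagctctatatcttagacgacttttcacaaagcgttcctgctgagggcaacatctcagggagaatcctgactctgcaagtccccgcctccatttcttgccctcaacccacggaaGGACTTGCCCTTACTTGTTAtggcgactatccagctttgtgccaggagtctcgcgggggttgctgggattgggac
Bax: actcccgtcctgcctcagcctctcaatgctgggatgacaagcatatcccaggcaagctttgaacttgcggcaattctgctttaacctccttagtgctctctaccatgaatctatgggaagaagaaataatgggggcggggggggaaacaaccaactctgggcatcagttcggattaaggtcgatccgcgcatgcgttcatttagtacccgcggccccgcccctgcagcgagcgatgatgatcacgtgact
The Ccng1 stretch lies on the minus strand at chr11:40755287-40755536, and its match, with 1 mismatch, spans bases -195 to -176 from the start. The Bbc3 stretch lies on the plus strand at chr7:16309333-16309582 and is the most upstream of 3 Bbc3 windows. Its match, with 3 mismatches, spans bases -97 to -78. The Trp53 stretch lies on the plus strand at chr11:69580109-69580358, with a match of 3 mismatches at bases -75 to -56. The Bax stretch lies on the minus strand at chr7:45466899-45467148. At 1 mismatch or fewer, only the Ccng1 window of the 11 remained, against 0.067% of all windows. Genes of this list count as p53 targets in part because such sites are known in some of them, so this share is no independent evidence. The match is a description of letters: no binding was measured here, and p53 sites of several classical targets lie in introns or farther upstream, outside such windows.

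The windows also differed in base composition. The 3 Bbc3 windows held 74.7% to 78.0% G and C bases, at percentiles 95.8 to 98.1 of all windows, while those of Mdm4 held 43.0% and 49.7%. The median of the 11 member windows was 59.0%, that of all windows 52.7% and that of windows of expressed genes 61.3%. The Mdm2 window had an observed over expected CpG ratio of 1.12, higher than 98.6% of all windows.

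**Figure D1:**
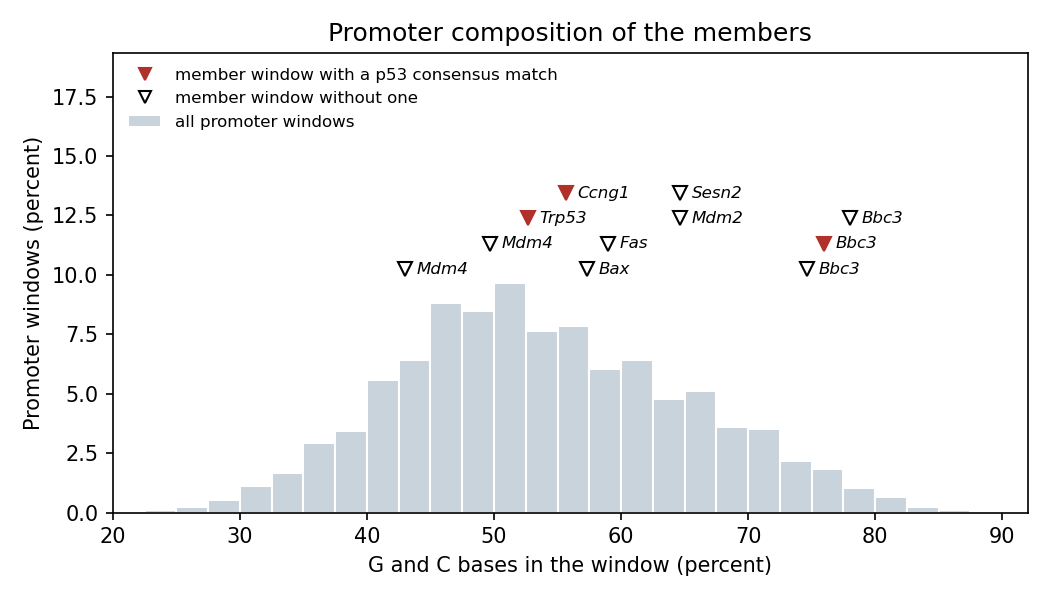
Share of G and C bases (percent, horizontal axis) in the 11 member windows (triangles; their height only separates the names) over the distribution of all 32851 windows (bars, percent of windows). Filled triangles hold a p53 consensus match with up to 3 mismatches: Ccng1, Trp53 and 1 of 3 Bbc3 windows, the last at 76.0% G and C.

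Of the 10 members, 8 were expressed, with Bax by far the highest and the death genes Pmaip1 and Fas lowest. The share of 80.0% stands beside 50.7% of all 24002 genes, and the median over the 10 members was 20.3 FPKM, against 1.31 FPKM over all genes. All genes include 5567 listed at 0 in every replicate and 1233 small RNA genes. The share was not particular to the members: other p53 pathway lists had 83.3% to 100%, the p53 family aside at 33.3%. The 8 expressed members lay between 10.3 and 122 FPKM, and Pmaip1 and Fas had means below 1 FPKM.

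Trp53 had 24.8, 25.9 and 26.0 FPKM in replicates 1, 2 and 3, a mean of 25.6 ± 0.698 (SD, n = 3). It thus lay above 89.4% of all genes. The other genes of its family were near 0: Trp73 had a mean of 0.188 ± 0.0498 FPKM and Trp63 of 0.0225 ± 0.0137, so Trp53 alone of the 3 was expressed. Over the 3 replicates the genes nearest to Trp53 in log2(FPKM + 1) were Kif3a, Becn1 and Aimp1, at Euclidean distances of 0.022 to 0.0271, and those nearest to Mdm2 were Taok2, Dtx1 and Rhno1, at 0.00434 to 0.0162. With 3 samples of 1 condition this likeness is mostly one of level.

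Both genes of the inhibitory pair were expressed, Mdm2 near the level of Trp53 and Mdm4 lower. Mdm2 had 24.5, 24.1 and 23.1 FPKM in replicates 1, 2 and 3, and Mdm4 had 10.6, 10.2 and 10.2 FPKM. The lowest Trp53 value (24.8) stood just above the highest Mdm2 value (24.5), so the replicate ranges of the pair did not overlap, but they came within 1.07-fold in their means. Within a library, where scaling between libraries has no part, Mdm2 over Trp53 was 0.989, 0.930 and 0.887, a mean ratio of 0.936 ± 0.0513 (SD, n = 3). Mdm4 over Trp53 was 0.405 ± 0.0210, and Mdm2 over Mdm4 was 2.31 ± 0.0557. The highest ratio of the inhibitors to each other was 1.05 times the lowest, and that of Mdm2 to Trp53 1.12 times.

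Among the apoptosis genes, Bax and Bbc3 were high and Pmaip1 and Fas were low. Bax, whose protein forms pores in the mitochondrial outer membrane, had 116, 126 and 124 FPKM, a mean of 122 ± 5.52 (SD, n = 3), and ranked 411 of the 24002 genes. Bbc3, which encodes the BH3-only protein PUMA, had 29.0, 32.0 and 30.1 FPKM. Replicate 1 was the lowest for each of these genes, by no more than 1.10-fold against the highest. Pmaip1, which encodes the BH3-only protein Noxa, had 0.919, 0.822 and 1.10 FPKM, and so passed 1 FPKM in replicate 3 alone. Fas, a death receptor gene, had 0.625, 0.407 and 0.490 FPKM and stayed below 1 FPKM in all 3 replicates. Bbc3 over Pmaip1 was 32.7 ± 5.81, with values of 31.6, 39.0 and 27.5 in replicates 1, 2 and 3. The highest Pmaip1 value was 1.33 times its lowest, and the highest Bbc3 value 1.10 times its lowest.

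The targets of cell cycle and metabolic control were all expressed. Ccng1, which encodes cyclin G1 and recruits a phosphatase to Mdm2, had 35.5, 36.1 and 37.6 FPKM, a mean of 36.4 ± 1.08 (SD, n = 3), second to Bax. Trp53inp1, a stress-induced gene that promotes p53 phosphorylation and autophagy, had 17.1, 15.9 and 17.0 FPKM. Sesn2, which encodes a leucine sensor that restrains mTORC1, had 14.0, 12.9 and 12.7 FPKM. In these 3 genes the highest replicate lay at most 1.10-fold above the lowest.

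**Figure D2:**
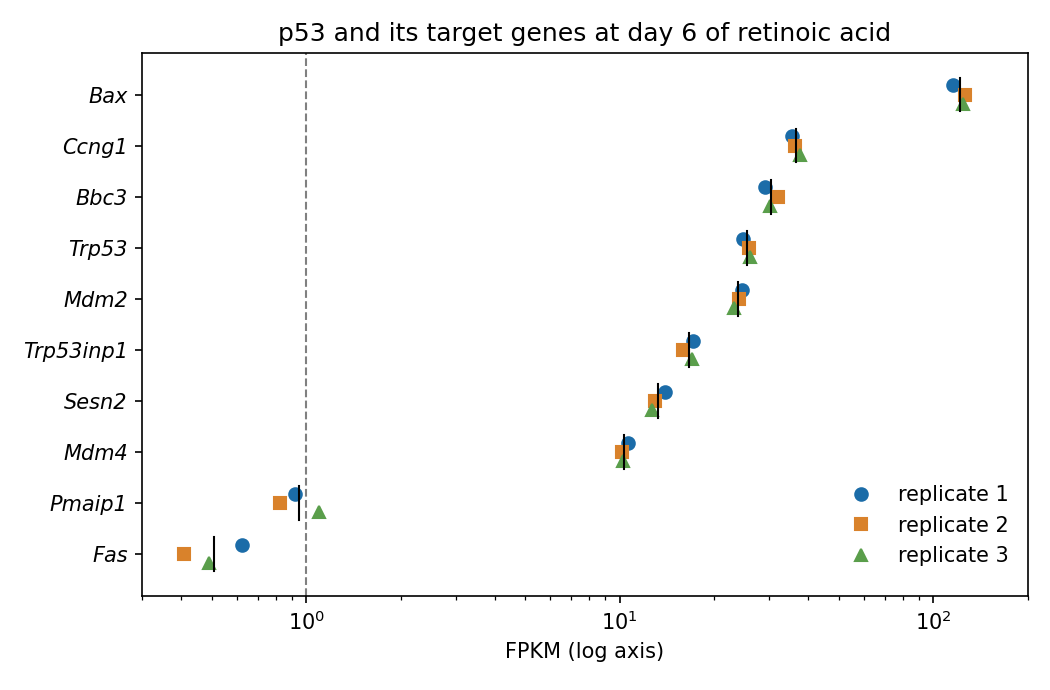
FPKM of each member in each replicate (log horizontal axis; symbols are replicates, the short vertical line is their mean) at day 6 of retinoic acid, with the 1 FPKM threshold dashed. Members run from Bax at a mean of 122 FPKM to Fas at 0.508. The replicate ranges of neighbours in this order do not overlap, which was not counted for other genes.

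In the order of mean levels, Bax, Ccng1, Bbc3, Trp53, Mdm2, Trp53inp1, Sesn2, Mdm4, Pmaip1 and Fas, the replicate ranges of none of the 9 neighbouring pairs overlapped. No such count was made for other genes, so it describes spacing and is no trait of the members. The widest steps were those of Mdm4 over Pmaip1, at 10.9-fold between means, and of Bax over Ccng1, at 3.36-fold. The narrowest were Trp53 over Mdm2 at 1.07-fold, Bbc3 over Trp53 at 1.19-fold and Ccng1 over Bbc3 at 1.20-fold. With 3 values a gene no test was made, and the FPKM estimate of each gene carries an error of its own from its transcript models that the replicates do not show.

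The members varied little between replicates. The SD of log2(FPKM + 1) lay between 0.0317 for Mdm4 and 0.105 for Fas. Among the 200 genes nearest in mean level, the SD of Mdm4 was at percentile 19.0 and that of Bax at percentile 77.5, and the other members lay between these. Fas and Pmaip1 had coefficients of variation of 21.7% and 14.6%, against 2.43% to 5.15% for the 8 expressed members. Among genes of their level Fas and Pmaip1 stood at percentiles 56.5 and 50 of the SD.

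With only 8 expressed members, the counts of lowest and highest members in each replicate stood near the shares over all genes. Trp53, Bax, Ccng1 and Bbc3 were lowest in replicate 1, and Mdm2, Mdm4, Trp53inp1 and Sesn2 were highest there. These are 4 of 8 and 4 of 8, beside 36.5% and 36.3% of the 12432 genes whose mean reached 1 FPKM. In replicate 2, 2 of 8 were lowest (32.0% of all such genes) and 2 of 8 highest (33.7%), and in replicate 3, 2 of 8 were lowest (31.3%) and 2 of 8 highest (30.0%). Among these 8, the largest deviations from a member's own mean in replicate 1 were 0.08 for Sesn2 and -0.07 for Bax (log2). The median over the 8 was 0.00. When libraries were scaled to the same upper quartile, Ccng1 was lowest in replicate 2 in place of replicate 1, Sesn2 lowest in replicate 2 in place of replicate 3, and Bax highest in replicate 3 in place of replicate 2. The counts of lowest members then were 3, 4 and 1 in replicates 1, 2 and 3, and those of highest members 4, 1 and 3.

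Markers of extraembryonic endoderm moved far more between these libraries than the expressed members did. All 11 of 11 were lowest in replicate 1, beside 36.5% of the 12432 genes whose mean reached 1 FPKM. This list was chosen with earlier results of these data known. The median deviation of the 11 markers was -0.33 in replicate 1 and 0.14 and 0.18 in replicates 2 and 3 (log2). Their summed level ran from 499 to 693 FPKM. The summed level of 7 markers of cycling cells ran from 86.8 to 89.6 FPKM and that of 8 neuronal markers from 2441 to 2568 FPKM, highest in replicate 1. The part of this mixture in the small differences of the members was not tested. In such bulk samples, fewer cells of a type and less RNA per cell cannot be told apart.

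**Figure D3:**
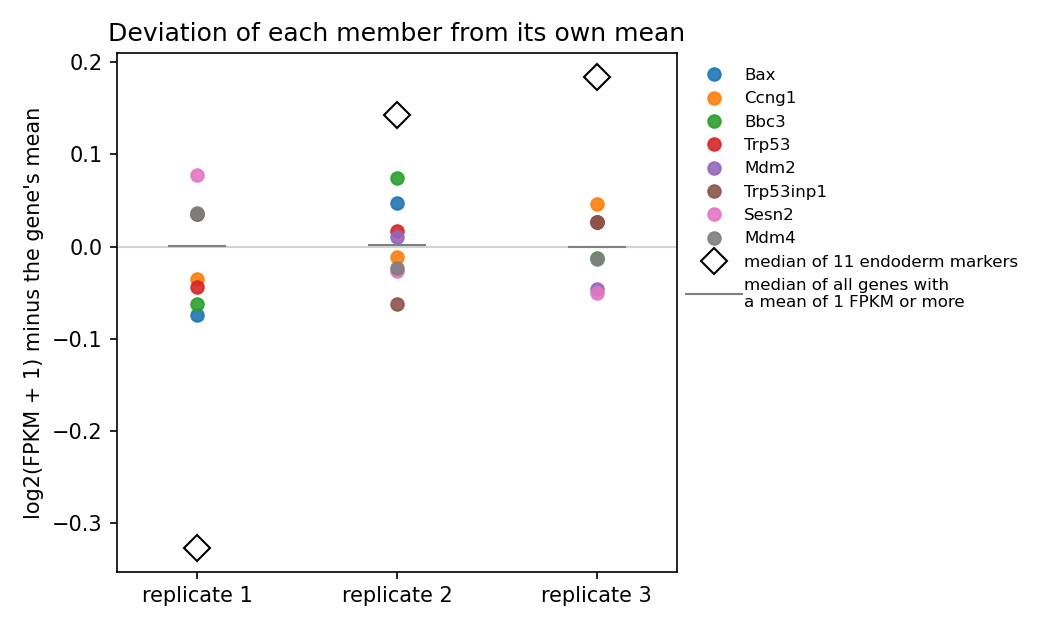
Deviation of log2(FPKM + 1) of each expressed member from its own mean, by replicate (dots), with the median of 11 endoderm markers (diamonds) and of all genes with a mean of 1 FPKM or more (grey dashes). These members stay within 0.08 of their means, while the endoderm median is -0.33 in replicate 1.

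Of the genes that act on p53 from upstream, Twist1 alone was below the threshold. Of 14 activating and modifying genes all 14 were expressed, with a median of 11.8 FPKM, while 50.7% of all genes were expressed. The ribosomal protein genes Rpl11 (634 ± 1.09 FPKM; SD, n = 3) and Rpl5 (324 ± 2.16), whose products bind Mdm2 when ribosome assembly fails, were the highest, followed by the growth inhibitor gene Ing1 (33.4 ± 0.580). The damage kinase genes were low but expressed, with Atm at 2.41 ± 0.0805, Atr at 3.23 ± 0.119, Chek2 at 2.08 ± 0.351, Chek1 at 1.97 ± 0.272 and Prkdc at 1.85 ± 0.0374. Cdkn2a, whose alternative reading frame product Arf binds Mdm2, had 10.8, 12.3 and 11.8 FPKM, and a gene-level value does not separate Arf from the p16 transcript of the same gene. Of 11 restraining genes other than Mdm2 and Mdm4, 10 were expressed, led by Trim28 (96.3 ± 1.91), a corepressor. The deubiquitinase gene Usp7 stood at 22.4 ± 0.0933, and Twist1, a developmental transcription factor gene, at 0.619 ± 0.238.

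Most genes listed as other p53 targets were expressed as well, beside 50.7% of all genes. Of 15 targets of arrest and repair, 14 were expressed, with a median of 11.1 FPKM. Cdkn1a, which encodes the cyclin-dependent kinase inhibitor p21, had 39.8, 41.1 and 41.7 FPKM, above Ccng1 in every replicate. Rprm (74.8 ± 3.81 FPKM; SD, n = 3), a gene of arrest in G2 phase, was the highest of the list, and Btg2 (23.0 ± 0.169), an antiproliferative gene, followed Cdkn1a. Sfn, an epithelial checkpoint gene, was below the threshold at 0.208 ± 0.120. Of 20 genes listed under targets of death and stress, some of them relatives of targets, 17 were expressed, with a median of 9.50 FPKM. Ddit4 (171 ± 14.3), an inhibitor of mTORC1 that low oxygen also induces, led this list. Trp53inp2 (66.7 ± 3.72) and Ccng2 (42.4 ± 2.07) followed. Both are counted there as relatives of Trp53inp1 and Ccng1, not as established p53 targets. The Sesn2 relatives Sesn3 and Sesn1 stood at 16.8 ± 0.148 and 11.4 ± 0.371, either side of Sesn2 at 13.2 ± 0.680. Below the threshold were Gdf15 (0.213 ± 0.0784), Perp (0.971 ± 0.0806) and Dram1, which had 0.736, 1.90 and 1.45 FPKM in replicates 1, 2 and 3.

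**Figure D4:**
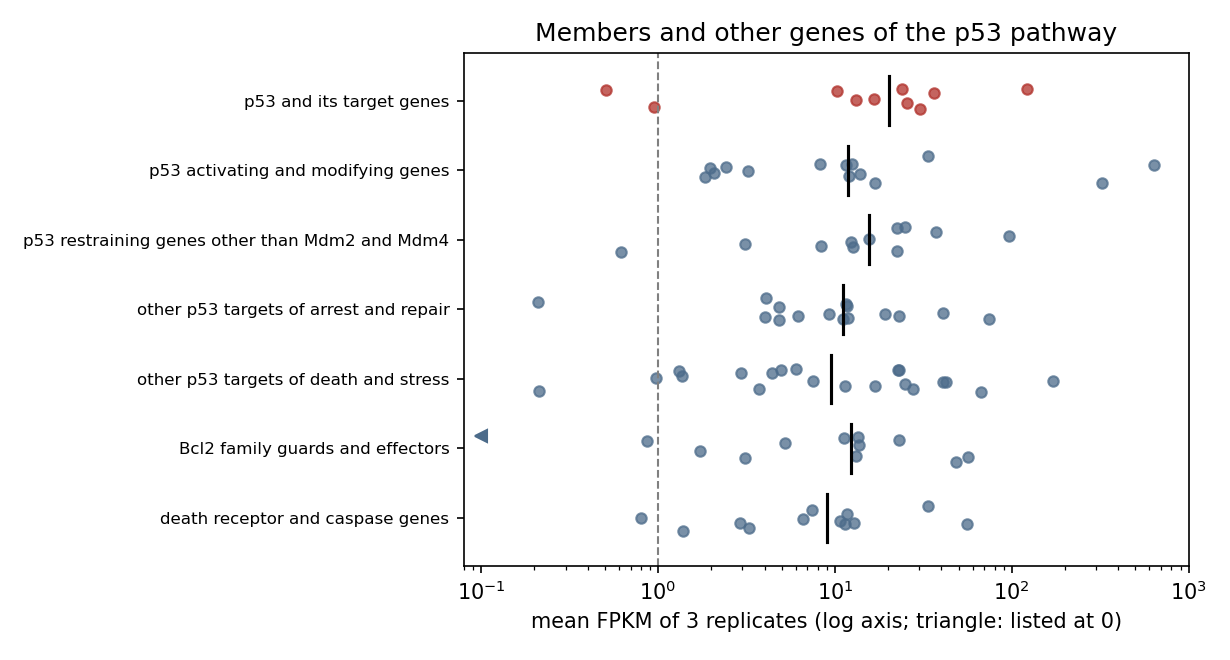
Mean FPKM over 3 replicates (log horizontal axis) of the 10 members (red) and of other p53 pathway genes by list (blue), with the list median as a black line and 1 FPKM dashed. The members' median is 20.3 FPKM, and the medians of the 6 other lists shown run from 9.04 to 15.5 FPKM.

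The partners with which Bax and Fas act were unevenly expressed. Of 12 further Bcl2 family genes, 10 were expressed, beside 50.7% of all genes. The survival genes Mcl1 (56.3 ± 2.10 FPKM; SD, n = 3) and Bcl2l1 (48.5 ± 0.375) led them. Bax over Bcl2l1 was 2.52 ± 0.133, Bax over Bak1, its fellow pore-forming gene, 8.88 ± 0.190, and Bax over Bcl2 71.5 ± 7.91. Bcl2 itself had a mean of 1.72 ± 0.128 FPKM. Of the family, Bik (0.871 ± 0.199) was below the threshold and Bcl2a1a was listed at 0 in every replicate. Fasl, the gene of the Fas ligand, was also below 1 FPKM, with 0.851, 0.710 and 0.838 FPKM, above Fas in every replicate, and Fas over Fasl was 0.631 ± 0.0900. Of 12 death receptor and caspase genes, 11 were expressed, all but Fasl. Casp8, the initiator caspase gene of the Fas route, had a mean of 1.38 ± 0.204 and the adaptor gene Fadd 3.28 ± 0.0592. On the mitochondrial route, Casp9 stood at 11.5 ± 0.477, Apaf1 at 6.05 ± 0.251 and Cycs, the cytochrome c gene, at 33.6 ± 0.366.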

How the data were processed

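RNA-seq of polyadenylated RNA was analysed in 3 samples of retinoic acid-treated R1 cells, assigned by title. The submitters' processing notes name Bowtie, Cufflinks and build mm9; for versions, settings, strand use and scaling between libraries, nothing is given in the sources used here. The authors' deposited table has no unit in its header. It was taken to hold FPKM, since Cufflinks reports FPKM and the values look like its output. The ATAC-seq regions of 3 further samples are in mm9 and were not used here, since the gene tables used are in GRCm38.p6. Protein sequences were not used here.

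From the deposited FPKM, means, SDs, ranks, ratios within a library and deviations in log2(FPKM + 1) were computed with Python 3.11.15, numpy 2.4.6 and pandas 2.3.3. The calls of expressed genes and of the lowest replicate and the relative depth were tested on simulated data. The p53 site search was tested on made-up sequences. Relative depth was the most common ratio of values between 0.001 and 0.1 FPKM, taken as equal read numbers, which is an assumption. One condition allows no test between groups. The members and lists were chosen with earlier results of these data known. Named genes are the members, genes of the 7 pathway and 6 marker lists (the highest, the lowest and those below 1 FPKM) and the 3 genes nearest to Trp53 and to Mdm2, small RNA genes left out. Other genes named beyond the highest and lowest of their lists were chosen for their role after their values were seen. These are the kinase, caspase, adaptor, family and ratio genes, Usp7 and Cdkn2a. Of the 10 members, 10 matched the RefSeq table. The listed symbols Cop1 and Tigar were not found in the table, and Cop1 was read under its older symbol Rfwd2. The value of 1 gene of the lists, which is counted in them, is not reported here. Alternatives were thresholds of 0.5 and 5 FPKM, pseudocounts, upper quartile scaling, rescaling to the same total without small RNA genes and leaving out each replicate.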

Additional observations from a re-analysis of the deposited data

How the results depend on the processing

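Of the values recomputed under alternatives, 133 stayed within the replicate spread or, for counts, within 1.5 times, and 28 did not. Counts of expressed genes, the p53 family aside, stood too near their list sizes to rise 1.5 times. For these the rule could flag only falls. All values with a replicate left out were among the 133. For levels and ratios this was fixed in advance, since leaving out a replicate cannot move the mean by a full SD. It is no evidence of stability there. The count of expressed members was 8 in most settings, 9 at 0.5 FPKM (Pmaip1 added) and 10 after rescaling to the same total without small RNA genes, which raised the median gene by 1.54 to 1.55 (log2), so a threshold of 1 then meant less expression. This rescaling put the members' median level at 5.98 and a pseudocount of 0.1 put it at 4.32, against 4.39 in log2(FPKM + 1). The flags of the rescaling on levels follow from its common shift. At 5 FPKM, 9 of the 14 activating and modifying genes passed. A pseudocount of 1 on both genes, which pulls ratios of low genes towards equality, gave 0.427 for Mdm4 over Trp53, 2.19 for Mdm2 over Mdm4, 16.2 for Bbc3 over Pmaip1, 45.4 for Bax over Bcl2, 8.34 for Bax over Bak1 and 0.837 for Fas over Fasl. Among alternatives chosen after seeing the data, member windows with the p53 consensus fell to 1 with up to 2 mismatches and to 1 with up to 1, and the 9 neighbouring pairs kept their separation under both scalings. No paired analysis was possible because the RNA-seq samples form 1 group and the result comes from no test. Absolute depth is unknown, which limits what the values of Pmaip1, Fas and Fasl can show.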

Other observations

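A further short motif, chosen after the promoter sequences were seen, was counted in the same windows. The palindrome CACGTG, an E-box, was present in 4 of the 11 member windows (36.4%), those of Bax, Trp53, Fas and 1 of Bbc3, against 7.15% of all windows and 9.99% of windows of expressed genes. The Bax window held it 2 times. A pair of CATG cores 6 bases apart, which ignores the purines and pyrimidines around the cores of the p53 consensus, was in 0 of the 11 member windows, against 0.712% of all windows and 0.296% of windows of expressed genes.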
